A study of Mus musculus with 441 samples.

Results

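The H3K36me3-rich gene windows are 500 of the 23167 windows of 1000 bases, 1 for each annotated gene start, in which ChIP-seq reads were counted in mouse embryonic stem cells. They were chosen by their ChIP-seq values, as the 500 windows with the largest difference between H3K36me3 and whole cell extract (input) in serum+LIF, after each library's counts were scaled to its sum, so they make up 2.16% of all windows. Because the serum H3K36me3 and serum input libraries chose the windows, their values in those 2 libraries are a description and carry no test.

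The study set 3 conditions of pluripotent cells side by side. These were v6.5 mouse embryonic stem cells, a widely used line, in 2i+LIF, Dgcr8 knockout mouse embryonic stem cells in serum+LIF, and v6.5 mouse embryonic stem cells in serum+LIF, so that LIF was present in all 3 and the knockout cells shared their medium with the serum cells. For each condition there was 1 ChIP-seq library each of H3K36me3, H3K4me3, H3K27ac, RNA polymerase II (RNAP2), H3K27me3, H3K9me3 and input, which makes 21 libraries. Bulk RNA-seq covered 1 population in 2i, 2 populations of the knockout and 2 in serum, and single-cell RNA-seq covered 94 cells in 2i, 84 knockout cells and 183 cells in serum on 2 plates, beside 54 neural precursor cells derived from v6.5 cells. The labels do not name the parental line or the number of clones of the knockout, so differences between lines and the loss of Dgcr8 cannot be told apart.

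H3K36me3 is laid down by a methyltransferase that travels with elongating RNA polymerase II, and it is found over the bodies of transcribed genes, rising toward their 3′ ends, rather than at their promoters. H3K4me3 and H3K27ac mark active promoters, H3K27me3 marks Polycomb-repressed genes and H3K9me3 marks heterochromatin. Small nucleolar RNAs (snoRNAs), which guide chemical modification of ribosomal RNA, and many microRNAs, which repress messenger RNAs, are processed out of the introns of longer host transcripts. Dgcr8 is the partner of Drosha in cutting microRNA precursors from their primary transcripts, and 2i medium holds the cells in a more uniform, ground-like state by blocking the kinases MEK and GSK3.

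The windows are named after the gene whose start they are centred on, and the sequences of some of those genes show which kinds of gene were involved. Of the 153 microRNA genes among the 500 windows, 140 had mature sequences in RefSeq (GRCm38.p6), and several families that share a seed, the bases 2 to 8 that pair with a target, were found whole. The 14 mature microRNAs below come from the miR-290 cluster (chromosome 7), the miR-302/367 cluster (chromosome 3), the miR-17-92 cluster (chromosome 14) and the miR-25/93/106b cluster (chromosome 5), and they are shown because these 4 clusters, which are active in embryonic stem cells, lay entirely inside the set. Capitals mark the seed. The first 5 share the seed AAGUGCU, the next 4 the seed AAAGUGC, which is the same run moved by 1 base, then 3 share AUUGCAC and 2 share GUGCAAA.
mmu-miR-291a-3p: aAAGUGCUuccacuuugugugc
mmu-miR-294-3p: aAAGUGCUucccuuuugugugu
mmu-miR-295-3p: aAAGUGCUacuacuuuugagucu
mmu-miR-302b-3p: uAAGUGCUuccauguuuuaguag
mmu-miR-302d-3p: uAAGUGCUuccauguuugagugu
mmu-miR-17-5p: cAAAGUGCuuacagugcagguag
mmu-miR-20a-5p: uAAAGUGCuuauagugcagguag
mmu-miR-93-5p: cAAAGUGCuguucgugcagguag
mmu-miR-106b-5p: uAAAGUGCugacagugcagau
mmu-miR-25-3p: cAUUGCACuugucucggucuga
mmu-miR-92a-3p: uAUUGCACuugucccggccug
mmu-miR-367-3p: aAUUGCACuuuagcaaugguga
mmu-miR-19a-3p: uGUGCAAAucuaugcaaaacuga
mmu-miR-19b-3p: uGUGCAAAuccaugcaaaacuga

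All 5 window genes with the seed AAGUGCU and all 3 with GUGCAAA were members, as were 4 of 6 with AAAGUGC (Mir106a and Mir20b were not), 4 of 7 with AUUGCAC and 5 of 6 with AGCAGCA, the seed of the miR-15 and miR-16 family. Of the 12 window genes with GAGGUAG, the seed of the let-7 family that is typical of differentiated cells, 3 were members. Those were Mirlet7d, Mirlet7g and Mir98.

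The protein-coding members were of another kind, and 2 of their promoters are printed here because the later results turn on such genes. Gzmm encodes a granzyme of cytotoxic lymphocytes and Fermt3 encodes kindlin-3, an integrin activator of blood cells, and both starts lie just past the 3′ end of a gene that was expressed in serum. The RefSeq sequences run from 250 bases before to 50 bases after the annotated start (GRCm38.p6, Gzmm chr10:79688770-79689069 on the plus strand, Fermt3 chr19:7019420-7019719 on the minus strand). Capitals mark the CG dinucleotides, of which each promoter holds 3.
Gzmm: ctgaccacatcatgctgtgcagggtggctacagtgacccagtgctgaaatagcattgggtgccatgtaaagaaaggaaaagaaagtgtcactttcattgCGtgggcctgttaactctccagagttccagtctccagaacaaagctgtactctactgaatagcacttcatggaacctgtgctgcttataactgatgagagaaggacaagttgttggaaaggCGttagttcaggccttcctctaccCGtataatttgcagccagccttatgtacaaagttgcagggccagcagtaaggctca
Fermt3: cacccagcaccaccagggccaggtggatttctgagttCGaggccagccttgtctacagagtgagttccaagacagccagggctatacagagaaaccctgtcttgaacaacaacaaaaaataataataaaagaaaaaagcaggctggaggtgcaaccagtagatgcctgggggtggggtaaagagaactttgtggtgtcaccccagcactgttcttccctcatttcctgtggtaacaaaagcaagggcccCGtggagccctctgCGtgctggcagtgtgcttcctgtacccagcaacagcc

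Counts per window were small, which sets how finely members can be ranked. In the serum libraries that chose them, the members held between 34 and 5243 H3K36me3 reads with a median of 72, and between 0 and 3267 input reads with a median of 17. Scaled to CPM, counts per 1000000 counts of the library, the difference between H3K36me3 and input ranged over 65.5, 99.8 and 3293 (lowest, median and highest). Dnase1l2 (65.6), Tarm1 (65.5) and Lgals7 (65.5) were the last windows inside the limit, and H2-T3 (65.4), Sipa1l2 (65.4) and Mirlet7a-1 (65.3) were the first outside it, so the edge of the set separates windows that differ by less than 1 read. The H3K36me3 libraries summed over all windows to 545650 reads in 2i, 333088 in the knockout and 502628 in serum, and the input libraries to 562581, 480437 and 457710. Each condition had 1 library of each kind, so intervals below are 95% intervals that cover counting error only, exact Poisson intervals for counts and exact Clopper-Pearson intervals for shares.

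Some windows stood apart before any result. Neighbouring windows overlapped, so that the 500 members came from 434 separate loci and 101 members overlapped another member. In 10 members (Mir101c, Snord37, G530011O06Rik, Dux, Gm13247, BC061237, Speer7-ps1, 4930467E23Rik, Zfp534 and 4933403O03Rik) the serum input held more than 57 reads, which is 3 times the median window. Mir101c, which had the largest difference of all, had 5243 H3K36me3 reads beside 3267 input reads and 10872 H3K9me3 reads in serum, and Dux, which encodes a double homeobox factor of a repeated locus, had 318 H3K36me3 reads beside 202 input reads. These 10 windows ranked high in nearly every library, and results that rest on them are given with and without them.

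The RNA libraries were checked for the targeted gene and for other cells. In TPM, a level per transcript length, Dgcr8 stood at 4.66 TPM in 2i, 4.03 and 2.20 TPM in the knockout, and 10.6 and 10.3 TPM in serum, so it was lower in the knockout and not absent. Its value in 2i was about as low as in the knockout. The 9 pluripotency markers summed to 39341 TPM in 2i, 39747 and 42315 TPM in the knockout, and 18118 and 18319 TPM in serum. Their sum was thus higher in 2i and in the knockout than in serum. Fibroblast and feeder markers (7 of 8 listed) summed to 21.7 TPM in 2i, 27.9 and 27.3 TPM in the knockout, and 191 and 177 TPM in serum, while Col1a2 was under 0.1 TPM in every library. Trophoblast markers (5 of 6 listed) summed to 6.79 TPM in 2i, 12 and 8.83 TPM in the knockout, and 138 and 159 TPM in serum, with Cdx2 under 0.1 TPM throughout. The sums of feeder and trophoblast markers were thus lower in 2i and in the knockout than in serum. The feeder markers did not all go this way. At 1 TPM or more were 3 in 2i, 3 and 3 in the knockout, and 3 and 2 in serum. Col1a1 was under 0.1 TPM in both serum libraries but not in 2i, and Thy1 in both serum libraries but not in the knockout. Primitive endoderm and neural markers stayed at or under 1.08 TPM in sum, and the part of these differences in the results was not tested.

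Small RNA genes made up 248 of the 500 members (49.6%) and 3.16% of all windows, while transcripts with an NM accession, the protein-coding ones, made up 195 members (39%) and 87.9% of all windows. The snoRNA genes and the scaRNA genes, which act in Cajal bodies, entered almost as a class, with 94 of their 114 windows (82.5%, 74.2% to 88.9%). Among the microRNA genes 153 of 614 windows (24.9%, 21.5% to 28.5%) were members. Predicted or unnamed transcripts were close to the share of all windows, with 83 of 3644 (2.28%).

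**Figure D1:**
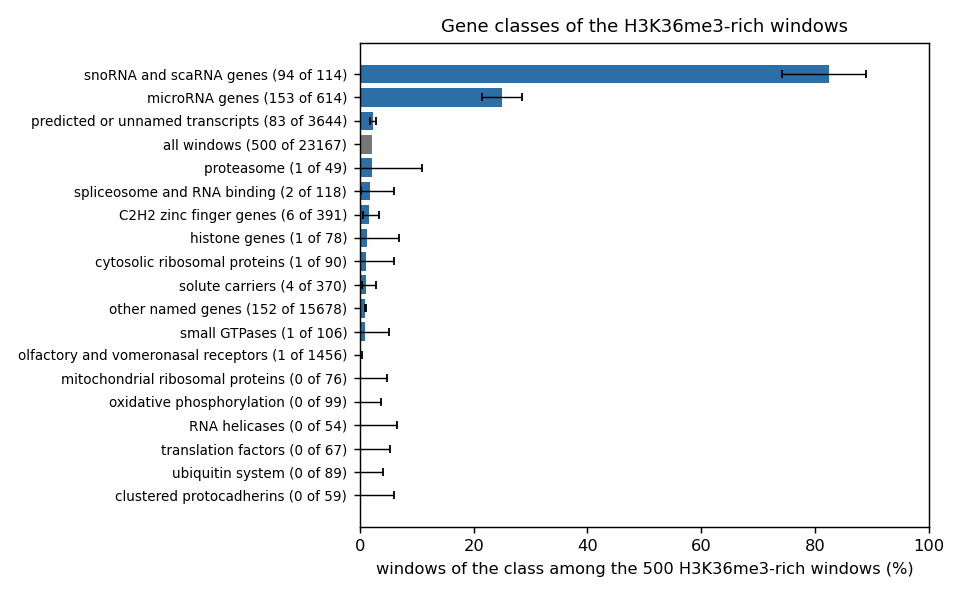
Share of the windows of each gene class, in percent, that were among the 500 H3K36me3-rich windows, with exact 95% Clopper-Pearson intervals that cover counting error only. Numbers in brackets are members of all windows of the class, and the grey bar is the share over all windows. The snoRNA and scaRNA genes reach 82.5% and the microRNA genes 24.9%, against 2.16% of all windows.

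Protein-coding starts as a whole gave 195 of 20370 windows (0.957%), and the housekeeping classes held too few members to be told from that share. The starts of the cytosolic ribosomal protein genes gave 1 of 90, those of proteasome genes 1 of 49 and those of spliceosome and RNA-binding genes 2 of 118. None of the 99 oxidative phosphorylation genes, 76 mitochondrial ribosomal protein genes, 67 translation factors, 54 RNA helicases or 59 clustered protocadherins was a member. The C2H2 zinc finger genes, a large family of DNA-binding repressors, gave 6 of 391, led by Zfp498, Zfp740 and Zfp646. Olfactory and vomeronasal receptors gave 1 of 1456. By chromosome, the largest share was on chromosome 12, where 40 of 780 windows (5.13%) were members and where 2 large groups of microRNA genes lie.

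The 12 leading members were mostly snoRNA windows within genes of the translation apparatus. Beside Mir101c they included 6430706D22Rik, Snora62 (within Rpsa), Snord37 (within Eef2), Snord35a and Snord33 (within Rpl13a), Snord82 (within Ncl), Snord83b (within Rpl3), Snord95 (within Rack1, listed as Gnb2l1 in the RNA files) and G530011O06Rik. Snord82 shows the pattern with a low background, with 164 H3K36me3 reads in 2i, 73 in the knockout and 177 in serum against 9, 8 and 13 input reads.

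Most members lay inside another gene, a property the choice did not use. By the RefSeq gene table, 280 of the 482 members that could be matched (58.1%) had their start inside another gene, against 19.1% of all matched windows. The contrast was smaller within each kind of gene. It was 83.3% against 75.6% for small RNA genes and 20.3% against 15.5% for NM transcripts. For other noncoding transcripts, those with an NR accession, it was 76% against 34.5%. On the same strand as that gene, as an intronic small RNA would be, lay 45% of members against 4.11% of all windows. Among small RNA genes alone these shares were 80% and 67.5%, and among NM transcripts 5.88% and 1.87%. All 94 snoRNA members had a host gene on the same strand, and 66 distinct hosts were found in the bulk RNA table. They included 21 ribosomal protein genes, which held 28 of the windows, 6 noncoding snoRNA hosts (the Snhg genes and Gas5) with 12 windows, 5 translation factor genes with 6 windows and 5 genes of nucleolar proteins with 9 windows. Rpl13a alone, which encodes a protein of the large ribosomal subunit, held Snord32a, Snord33, Snord34, Snord35a and Mir5121.

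The hosts of members were expressed. The median level of the 66 hosts of snoRNA members in serum was 80.3 TPM, and 50 of them reached 10 TPM. The 11 hosts found for snoRNA windows outside the set had a median of 0.270 TPM. Among these windows were Snord116, Snord116l1, Snord116l2 and Snord64 within Snhg14, the imprinted noncoding host, which the RNA files list as C230091D08Rik at 0.168 TPM. By level of the host, 1 of 10 snoRNA windows was a member where the host was under 1 TPM, 19 of 21 at 1 to 10 TPM, 26 of 26 at 10 to 100 TPM and 45 of 48 at 100 TPM or more.

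For hosted microRNA windows the shares were lower where the host was at 1 TPM or more. In all, 101 of 150 matched microRNA members lay within a host on the same strand, and their 69 hosts had a median of 4.44 TPM, against 0.241 TPM for the 156 hosts of microRNA windows outside the set. The share of members was 26 of 163 windows with a host under 1 TPM, 31 of 103 at 1 to 10 TPM, 17 of 22 at 10 to 100 TPM and 8 of 14 at 100 TPM or more. The share was thus higher above 10 TPM than below it, but from 1 TPM up it stayed under that of snoRNA windows, and 20 of the hosts of members were under 1 TPM.

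**Figure D2:**
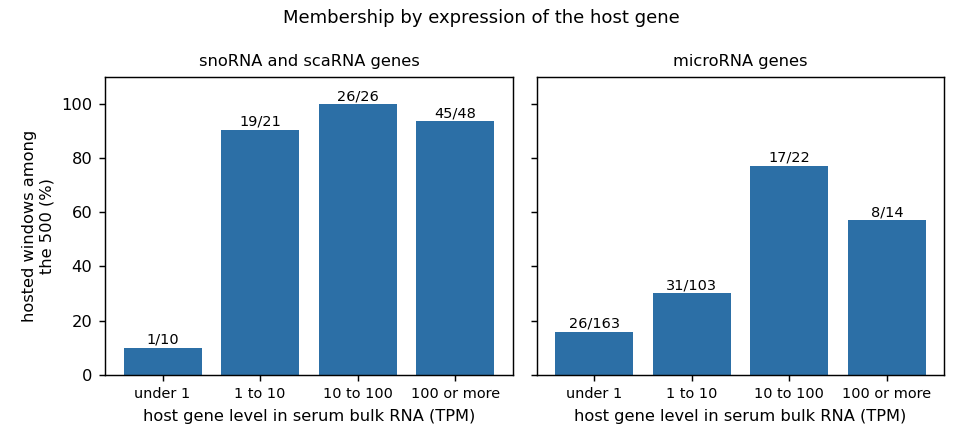
Share of hosted snoRNA and scaRNA windows (left) and microRNA windows (right), in percent, that were among the 500, by the level of the host gene in serum bulk RNA (mean of 2 libraries, TPM). Numbers above the bars are members of all hosted windows. Above 1 TPM nearly all snoRNA windows were members, and microRNA windows reached 17 of 22 at 10 to 100 TPM.

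The protein-coding members were placed differently from other protein-coding starts. Of 187 matched NM members, 38 had their start inside another gene (20.3%, against 15.5% of all matched NM windows). The clearer difference lay past the ends of other genes. Of the other 149 members, 56 (37.6%) lay within 2000 bases past the 3′ end of a gene, on either strand, that is read toward them. The share was 7.79% over all NM windows not inside another gene (distances by RefSeq, GRCm38.p6). With a limit of 1000 bases the shares were 28.2% and 4.16%, and with 5000 bases they were 49.7% and 17.7%. Either placement held for 94 of 187 members (50.3%) and for 22.1% of all NM windows. The neighbour, not the member, was the expressed gene in most of these pairs. The neighbours of members had a median of 5.40 TPM in serum, with 47 of 55 at 1 TPM or more. The members themselves had a median of 0.107 TPM, with 43 of 47 under 1 TPM. Exceptions included Chmp2a (52.9 TPM, past Ube2m at 3.5 TPM) and Slc29a1 (80.9 TPM, past a gene at 3.25 TPM). Over all windows placed this way, the neighbours had a median of 0.953 TPM.

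Individual pairs show the arrangement. Fermt3 (0.207 TPM in serum) starts 1227 bases past the end of Stip1, a co-chaperone gene at 679 TPM. Gzmm (0 TPM) starts 622 bases past Cdc34, a ubiquitin-conjugating enzyme gene at 6.76 TPM, and Lcat (0.259 TPM), for a cholesterol-esterifying plasma enzyme, starts 188 bases past Slc12a4 at 1.55 TPM. Fam83e (0.0625 TPM) starts 336 bases past Rpl18 at 314 TPM. The RefSeq promoters of 157 NM members held a median of 7 CG dinucleotides in 300 bases, against 14 over the 16042 NM windows with a promoter sequence, and 45.2% of the members' promoters held 5 or fewer, against 30.0% of all. The Fermt3 and Gzmm promoters printed above are of that CG-poor kind.

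Some protein-coding members were themselves expressed, with 65 NM members at 1 TPM or more in serum and 110 below it. The median serum H3K4me3 of those 65 windows was 0.784 CPM, against 0.816 for the 110 and 16.1 for all NM windows below 1 TPM, so the median of this promoter mark was no higher in the expressed members. Pou5f1, which encodes the pluripotency factor Oct4, and Tet1, a dioxygenase that acts on methylated cytosine, ranked 178 and 90 and were picked out after their values were seen. The Pou5f1 window held 161 H3K36me3 reads in 2i, 49 in the knockout and 77 in serum, beside 21, 14 and 12 input reads. Its messenger RNA stood at 1044 TPM in 2i, 1455 and 1703 TPM in the knockout, and 480 and 559 TPM in serum. The serum libraries were below all others for this gene, and it rose on the log2(TPM + 1) scale by 1.01 ± 0.15 in 2i (SE, limma adjusted p = 0.000243) and by 1.60 ± 0.12 in the knockout (limma adjusted p = 2.72e-07). The Tet1 window held 130 H3K36me3 reads in 2i, 35 in the knockout and 109 in serum, beside 17, 6 and 18 input reads. Tet1 messenger RNA stood at 8.25 TPM in 2i, 35 and 32.1 TPM in the knockout, and 14.8 and 10.9 TPM in serum. It rose by 1.33 ± 0.22 in the knockout (SE, limma adjusted p = 0.000177), and in 2i, where its log2 fold change was -0.57 ± 0.27, it did not pass the test (limma adjusted p = 0.134). Relative to the median gene, neither rise in the knockout passed the test (limma adjusted p = 0.0671 for Pou5f1 and 0.261 for Tet1), while in 2i Pou5f1 stayed higher (limma adjusted p = 0.0468) and Tet1 was lower (limma adjusted p = 0.0139).

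In the other marks, most members were low in the promoter marks, apart from the snoRNA windows. The median serum H3K4me3 level was 0.914 CPM over members and 17.8 over all windows, and that of H3K27ac was 10.1 against 19.9. RNAP2 was at 23.7 against 17.7, H3K27me3 at 19.6 against 24.5, H3K9me3 at 41.6 against 39.2 and input at 37.1 against 41.5. The snoRNA members differed from the others, with medians of 26.5 for H3K4me3, 42.2 for H3K27ac and 99.2 for RNAP2. The NM members had medians of 0.784, 9.59 and 19.7 for these 3 libraries, although their windows are centred on annotated starts. The microRNA members were low as their whole class was, with medians of 0.849 for H3K4me3 and 8.85 for H3K27ac. Over all 614 microRNA windows these medians were 0.653 and 6.14.

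**Figure D3:**
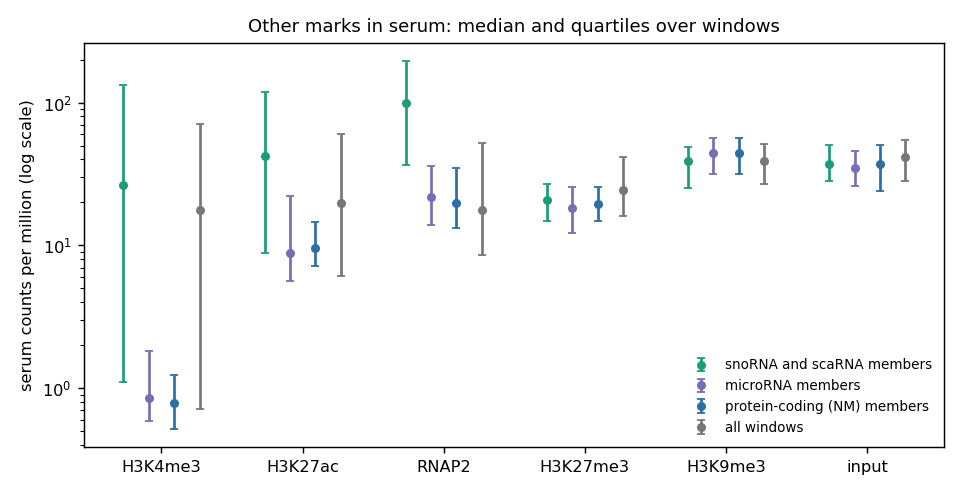
Serum CPM (log scale) of 5 other ChIP targets and of input, for snoRNA and scaRNA, microRNA and protein-coding (NM) members and for all windows, as median and quartiles over windows. The H3K4me3 median was 26.5 for snoRNA members and 0.784 for NM members, against 17.8 for all windows.

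The same contrast held at the top of H3K4me3, H3K27ac and RNAP2, but not of H3K27me3 or H3K9me3. Among the 5% of windows highest in H3K4me3 were 32 members (6.40%), of which 22 were snoRNA windows (22 of 94) and none was an NM member (0 of 195, which allows a share of up to 1.87% by the Clopper-Pearson interval). For H3K27ac there were 27 members (5.40%). For RNAP2 there were 64 (12.8%), of which 40 were snoRNA windows. Without small RNA genes the shares were 1.59% for H3K4me3, 1.59% for H3K27ac and 4.37% for RNAP2. For H3K27me3 there were 8 (1.60%), and without the windows of high input the share was 0.204%. For H3K9me3 there were 36 (7.20%), against 4.48% of all windows, since ties left slightly under 5% above that limit, and without the windows of high input the share was 5.31%.

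The members highest in the promoter marks were mostly snoRNA windows. Snord68, within Rpl13, led H3K4me3 with 645 CPM in 2i, 689 in the knockout and 623 in serum, where it ranked 3 of all windows. Snora7a (425 in serum) and Snord15a (343 in serum) followed, and in H3K27ac Snord68 and Snora21 came after Mir101c. For RNAP2, Mir295 (772 CPM in serum) and Mir294 (718) of the miR-290 cluster came after Mir101c. In H3K27me3 and H3K9me3 the leading members were Mir101c, 4933403O03Rik and Dux, all 3 among the windows of high input.

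Read in the other conditions, most members again held more H3K36me3 than input. The median difference over members was 126 CPM in 2i and 70.9 in the knockout, beside 99.8 in serum, where it was used for the choice. Over all windows the median was -2.62 in 2i, -0.960 in the knockout and -1.92 in serum. H3K36me3 exceeded input in 98.4% of members in 2i and in 96.6% in the knockout, against 45% and 48.3% of all windows. When the 500 windows were chosen in the same way in each condition, 339 members (67.8%, 63.5% to 71.9%) were again in the set of 2i and 291 (58.2%, 53.7% to 62.6%) in that of the knockout, where 2.16% of all windows were. Both sets held 253 members, and 123 members were in neither. Since all 3 lists hold 500 windows, each share is the same read from either list.

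The snoRNA windows returned most often. Of the 94, 90 were in the set of 2i and 85 in that of the knockout, and 84 were in both. Of the 153 microRNA members 107 and 98 returned, and of the 195 NM members 106 and 76. The knockout library was the shallowest of the 3, and its part in the lower shares was not tested. A limit of the highest 5% of windows was met by 427 members in 2i and by 373 in the knockout.

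**Figure D4:**
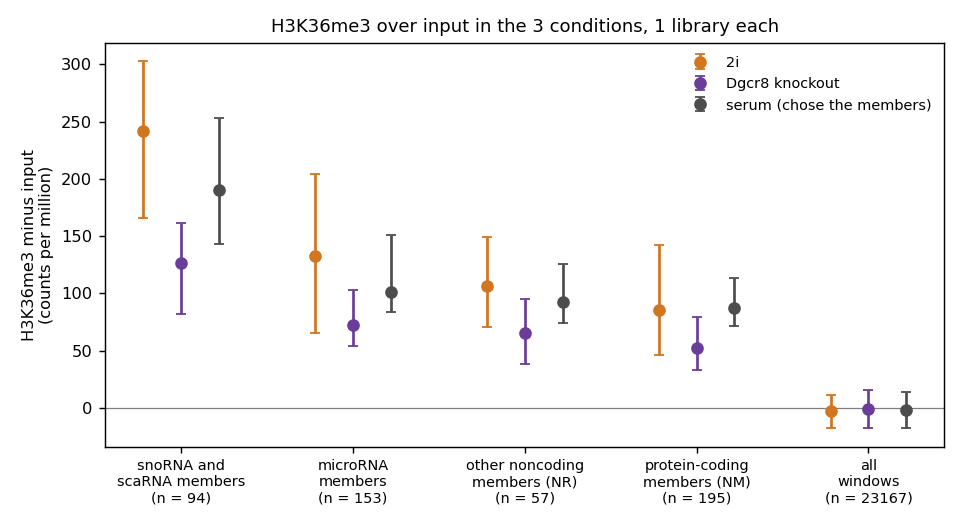
H3K36me3 minus input (CPM, 1 library per condition) for the classes of members and for all windows, as median and quartiles over windows. Serum chose the members. Medians for snoRNA members were 242 in 2i, 127 in the knockout and 190 in serum, and all windows had medians near 0.

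The 2i and knockout libraries, neither of which chose the windows, could be compared directly. H3K36me3 in CPM was higher in 2i than in the knockout in 395 of 500 members (79%), against 47.6% of all windows, and the median log2 ratio, with 1 CPM added to each level, was 0.57 over members and -0.05 over all windows. For snoRNA members 91 of 94 were higher in 2i, with a median log2 ratio of 0.80. The level also depended on the library in windows chosen elsewhere. The 500 windows chosen in the knockout had a median difference of 104 CPM in 2i, 80.9 in the knockout itself and 81.2 in serum. For windows chosen in serum or in the knockout, the median difference was thus smaller in the knockout library than in 2i. Windows chosen in 2i cannot add to this, since that choice itself raises their level in 2i. With 1 library each, differences between libraries and between cells cannot be told apart.

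At the extremes, Mir101c, Snord37 and 6430706D22Rik were among the members with the largest differences in 2i (1045, 453 and 450 CPM). The lowest in 2i were Ucp3, 1700001C19Rik, Gm4981 and Dux. Ucp3, for a mitochondrial uncoupling protein, had 22 H3K36me3 and 33 input reads in 2i against 58 and 11 in serum. In the knockout Mir101c, Snord37, 4930467E23Rik and 6430706D22Rik were highest, and Dnase1l2, Cd276, Dux and Gm4981 were lowest, each with less H3K36me3 than input. Cd276, an immune checkpoint gene, had 17 H3K36me3 and 39 input reads in the knockout against 56 and 18 in serum.

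The microRNA clusters differed from each other across conditions. To avoid counting reads of overlapping windows more than once, only separate windows were summed and the sum was divided by their number. In the miR-290 cluster, the main microRNA cluster of embryonic stem cells, all 7 windows were members, and 2 separate windows averaged 251 CPM of H3K36me3 in 2i (222 to 283), 107 in the knockout (83.2 to 134) and 137 in serum (115 to 162). The interval in 2i lay above that of the knockout, while the serum value comes from the library that chose the windows and is a description. RNAP2 in the same windows ran the other way, at 329 in 2i (303 to 357), 525 in the knockout (500.2 to 550.2) and 611 in serum (583 to 639), where no 2 intervals overlapped. Input in these windows was at 54.2 in 2i, 35.4 in the knockout and 50.2 in serum.

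In the other pluripotency clusters, too, the serum library chose the windows, so only 2i and the knockout are compared. The miR-17-92 cluster, whose 6 windows were all members, gave 247 CPM in 2i (207 to 293), 144 in the knockout (106 to 191) and 235 in serum (194 to 281) in its 1 separate window. The miR-25/93/106b cluster within Mcm7 gave 324 in 2i (278 to 376), 213 in the knockout (166 to 269) and 243 in serum (202 to 290). The miR-302/367 cluster gave 145 in 2i (115 to 180), 114 in the knockout (80.7 to 157) and 113 in serum (85.9 to 147). Its intervals in 2i and the knockout overlapped. In the miR-17-92 cluster and the miR-25/93/106b cluster the knockout interval lay below that of 2i.

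The large imprinted microRNA group on chromosome 12, from Mir379 to Mir3072 (chr12:110946770-110986587, mm9), departed from this order. Of its 37 windows 20 were members, and 19 separate windows averaged 82.8 CPM in 2i (77.3 to 88.5), 85.8 in the knockout (78.7 to 93.3) and 103 in serum (96.3 to 109), beside input at 33.6 in 2i, 32.6 in the knockout and 31.2 in serum. The level in 2i was thus not above that in the knockout. Of its windows, 5 were in the 500 of 2i and 15 in that of the knockout, while the 20 in serum are the members themselves. A second group nearby (chr12:110801402-110834036, mm9), with 5 members of 14 windows, gave 87.2 in 2i (79.1 to 95.8), 92.7 in the knockout (82.2 to 104) and 111 in serum (102 to 121). In both groups the serum level comes from the library that chose the members, so it is a description and is not compared with the others. Mirg, the RNA that hosts part of the first group, was listed at 0 TPM in 2i, 1.13 and 0.500 TPM in the knockout, and 0.0555 and 0 TPM in serum.

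In the remaining marks the comparison with serum did not use the values that chose the windows. Among members with at least 20 reads between both libraries, H3K4me3 was at least 2-fold higher in 2i in 97 of 381 (25.5%), against 10.7% of all windows tested, and at least 2-fold lower in 27 (7.09%), against 7.28%. In the knockout it was at least 2-fold higher in 262 of 418 (62.7%), against 26.3%, and lower in 2 (0.478%), against 0.671%. Most members had very low H3K4me3, and with at least 50 reads the shares higher were 7.19% in 2i and 32.9% in the knockout. At that limit 14.4% were lower in 2i, so that more members were lower than higher there. Shares of all windows at 50 reads are not given here, so these values have no background beside them. The serum H3K4me3 library was the deepest, with 15315269 reads, against 9687863 in 2i and 5686479 in the knockout, and the part of depth and background in these shares was not tested.

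RNAP2 over the members was higher at shares near those of all windows and lower at smaller shares. It was at least 2-fold higher in 2i in 57 of 482 members (11.8%), against 12.3% of windows tested, and lower in 20 (4.15%), against 6.67%. In the knockout it was higher in 42 of 499 (8.42%), against 10.2%, and lower in 4 (0.802%), against 4.02%. Members held more RNAP2 reads, with a serum median of 36 against 27 over all windows, and the part of read number in these shares was not tested.

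H3K27me3 was at least 2-fold higher in 94 of 427 members in 2i (22%, against 15.6%) and in 102 of 456 in the knockout (22.4%, against 13.7%), and lower in 10 each (2.34%, against 6.28%, in 2i and 2.19%, against 4.37%, in the knockout). H3K27ac went the other way. It was at least 2-fold lower in 93 of 495 members in 2i (18.8%, against 13.7%) and in 121 of 497 in the knockout (24.3%, against 12.6%), and higher in 10 in 2i (2.02%, against 3.3%) and in 5 in the knockout (1.01%, against 1.79%). H3K9me3 was at least 2-fold higher in 33 of 474 members in 2i (6.96%, against 8.32%) and in 35 of 451 in the knockout (7.76%, against 7.64%), and lower in 49 (10.3%, against 7.75%) and in 42 (9.31%, against 7.57%), shares near those of all windows. These are comparisons of single libraries, and the 2i and knockout columns share the same serum libraries.

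RNA levels under the members' own names were low, as they were over all windows. The bulk table lists 258 of the 500 members, since only 58 of the 248 small RNA genes are listed, and of these 28 share all values with another listed gene and 21 are at 0 in every library. The median over the 258 was 0.520 TPM in 2i, 1.13 and 0.797 TPM in the knockout, and 0.348 and 0.212 TPM in serum. Over the 17293 listed windows it was 0.707 TPM in 2i, 1.53 and 1.43 TPM in the knockout, and 0.541 and 0.390 TPM in serum. In the mean of the serum libraries 62.4% of members were under 1 TPM, against 59.7% of all listed windows. Among NM windows the share that were members hardly depended on the gene's own level, at 38 of 2995 at 0 TPM (1.27%), 72 of 6723 up to 1 TPM (1.07%), 39 of 4227 from 1 to 10 TPM (0.923%), 19 of 1858 from 10 to 100 TPM (1.02%) and 7 of 693 above 100 TPM (1.01%). In bulk samples fewer cells of a type and less RNA per cell cannot be told apart.

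Of the members, 117 passed the filter of a mean of 1 TPM and were tested with limma among 10081 genes, with Benjamini-Hochberg adjustment over all of them. Against serum, 26 were higher in 2i (22.2%), where 20.4% of all tested genes were, and 15 were lower (12.8%), where 11.8% were. In the knockout 65 were higher (55.6%), where 62.5% of all genes were, and 23 were lower (19.7%), where 11.7% were. The median of all tested genes was shifted by 0.20 in 2i and by 0.92 in the knockout on the log2(TPM + 1) scale. Relative to that median, 16 members were higher and 23 lower in 2i (13.7% and 19.7%, against 13.8% and 18.7% of all genes), and in the knockout 16 were higher and 54 lower (13.7% and 46.2%, against 21.8% and 36.5%). Leaving out serum replicate 2, knockout replicate 1 or knockout replicate 2 took the share higher in 2i to 12.8%, 13.7% and 12.8%, and leaving out serum replicate 1, knockout replicate 1 or knockout replicate 2 took the share lower to 7.69%, 4.27% and 4.27%. The median log2 fold change was -0.03 over members in 2i and 0.67 in the knockout. In both comparisons the members' shares were near those of all genes, apart from the larger share lower in the knockout, in which 9 of the 23 were small RNA genes. The 2i and knockout results share the serum libraries, and nothing in the labels says that the populations came from separate cultures, so the p-values speak only of how far these samples lie apart.

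**Figure D5:**
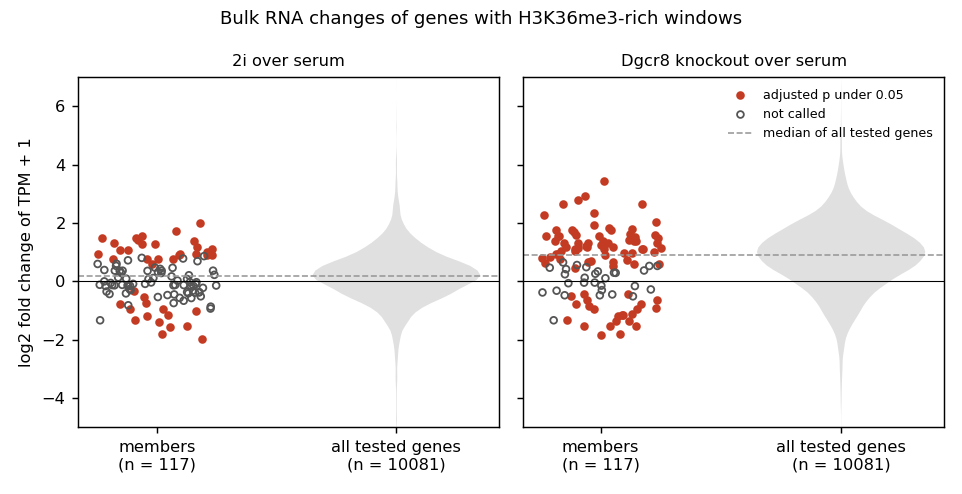
Change of bulk RNA on the log2(TPM + 1) scale for the 117 tested members (points, filled where limma's adjusted p was under 0.05) beside the distribution of all 10081 tested genes (grey), for 2i over serum (left) and Dgcr8 knockout over serum (right). The dashed line is the median of all tested genes, at 0.20 and 0.92, and the members scatter on both sides of it.

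Among the members that rose in the knockout, Pecam1, an adhesion receptor also found on embryonic stem cells, stood at 165 and 162 TPM in the knockout against 16.5 and 12.3 TPM in serum. The groups did not overlap, and the log2 fold change was 3.43 ± 0.19 (SE, limma adjusted p = 2.99e-08). Fermt3 stood at 2.37 TPM in 2i, 7.01 and 7.76 TPM in the knockout, and 0.213 and 0.200 TPM in serum. It rose by 1.48 ± 0.31 in 2i (limma adjusted p = 0.0029) and by 2.80 ± 0.25 in the knockout (limma adjusted p = 1.22e-06), and in single cells its mean was 7.91 TPM in 2i and 10.7 TPM in the knockout while it was listed at 0 in both serum plates. Gigyf1, a translational repressor gene, stood at 7.99 TPM in 2i, 21.2 and 17.2 TPM in the knockout, and 2.14 and 2.21 TPM in serum, and it too rose in both comparisons (limma adjusted p = 0.00234 in 2i and 1.53e-06 in the knockout).

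The other members with the largest rises in the knockout were A630007B06Rik, Masp2 (a complement protease), Kat2b (a histone acetyltransferase), Sun1 (a nuclear envelope protein) and Tarm1, with log2 fold changes between 2.03 and 2.94. For Sun1 the single cells went the other way, with means of 79.1 TPM in the knockout against 165 and 199 TPM on the serum plates, while bulk RNA stood at 94.1 and 97.9 TPM in the knockout against 16.5 and 22.1 TPM in serum. Masp2 and Kat2b were higher in the knockout in bulk RNA and in cells. Means in cells ran higher outside serum in general. Over all listed windows their median was 3.09 TPM in 2i and 4.04 TPM in the knockout, against 0.969 and 0.716 TPM on the serum plates. Higher means in cells are therefore not particular to the genes named here.

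The largest falls in the knockout included several small RNA names that carry their host's value. Gm6654 had the largest fall, at 43.6 TPM in 2i, 44.1 and 52.9 TPM in the knockout, and 173 and 177 TPM in serum, and it fell by 1.98 ± 0.20 in 2i (limma adjusted p = 1.65e-05) and by 1.84 ± 0.17 in the knockout (limma adjusted p = 1.38e-06). Snora33 (listed with the values of Rps12) stood at 459 and 504 TPM in the knockout against 1359 and 1440 TPM in serum. Mir1306 (listed with the values of Dgcr8) and Mir1982 (listed with those of Oaz1) fell too, as did Snord1a (listed with the values of its host 1810032O08Rik), Zfp534, Ccdc58 and Gm10416, with log2 fold changes between -1.80 and -1.18. Zfp534, a zinc finger gene of a repeated family, was one of the windows of high input. In single cells Gm6654, Mir1306, Zfp534 and Gm10416 had lower means in the knockout than on both serum plates. Snord1a, Snora33 and Mir1982 lay between the plates, and Ccdc58 was higher (81.8 TPM against 72.6 and 65.7 TPM), beside the general rise of cell means given above.

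In 2i, Mir546 (listed with the values of its host Ctdsp2), Gm13251, Chmp2a (an ESCRT subunit), 4930548H24Rik and Snora74a (listed with the values of AK080350 and AK088959) rose beside Fermt3 and Gigyf1, with log2 fold changes between 1.33 and 1.99. Chmp2a stood at 142 TPM in 2i against 56.9 and 48.9 TPM in serum, and it rose by 1.41 ± 0.19 (limma adjusted p = 0.000173). The largest falls in 2i after Gm6654 were those of Slc29a1 (a nucleoside transporter), D4Ertd617e, Urb2, 2310003C23Rik, Phc1 (a Polycomb subunit), Zscan18 and 8430410K20Rik, with log2 fold changes between -1.81 and -1.14. Slc29a1 stood at 22.2 TPM in 2i against 88.8 and 73 TPM in serum, and Phc1 at 18.2 TPM against 50 and 44.5 TPM. In single cells only Gm6654 and 2310003C23Rik among these falls had lower means in 2i than on both serum plates. The others had higher means, such as Slc29a1 (44.3 TPM against 37.4 and 42.5 TPM) and Phc1 (35.8 TPM against 23.2 and 13.2 TPM). Since cell means in 2i ran higher over all listed windows, as given above, these values do not settle the direction for single genes. For 6 of the genes named for 2i, rises and falls together, the call ended when 1 library was left out. Without serum replicate 2 the limma adjusted p was 0.0586 for 4930548H24Rik, 0.0867 for Snora74a and 0.0668 for 8430410K20Rik, and without serum replicate 1 it was 0.0652 for 2310003C23Rik, 0.120 for Zscan18 and 0.104 for 8430410K20Rik. Without knockout replicate 1, limma's adjusted p was 0.0535 for Urb2, 0.0843 for Snora74a, 0.0751 for 2310003C23Rik, 0.0741 for Zscan18 and 0.0902 for 8430410K20Rik. Without knockout replicate 2 all 6 lost the call, with limma adjusted p values from 0.0509 (4930548H24Rik) to 0.0901 (8430410K20Rik).

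The host genes of the small RNA members could be tested as well. Of 65 tested hosts of snoRNA members, 9 were higher and 23 lower in 2i (13.8% and 35.4%, against 20.4% and 11.8% of all tested genes), with a median log2 fold change of -0.34. In the knockout 23 were higher and 24 lower (35.4% and 36.9%, against 62.5% and 11.7% of all tested genes), with a median of -0.04. Relative to the median gene, 5 of the 65 were higher and 27 lower in 2i, and 9 were higher and 45 lower in the knockout. Of all tested genes, 13.8% were then higher and 18.7% lower in 2i, and 21.8% and 36.5% in the knockout. Without that centring, 5 of the 21 ribosomal protein hosts were higher and 8 lower in 2i. In the knockout 7 were higher and 11 lower, beside the shares of all tested genes without centring given above. Of the 53 tested hosts of microRNA members, 15 were higher and 13 lower in 2i (28.3% and 24.5%), and 32 were higher and 5 lower in the knockout (60.4% and 9.43%). Relative to the median gene the balance turned, with 10 higher and 16 lower in 2i and 11 higher and 25 lower in the knockout. The balance of all tested genes turned in the same way.

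Hosts of leading windows, named after their values were seen, did not move in 1 direction. Gas5 stood at 1210 TPM in 2i, 1517 and 1355 TPM in the knockout, and 416 and 353 TPM in serum, and it rose in both comparisons (log2 fold change 1.66 ± 0.14, limma adjusted p = 3.9e-06, and 1.90 ± 0.12, limma adjusted p = 7.07e-08). Nop56, a core protein of snoRNA particles, stood at 544 TPM in 2i, 268 and 255 TPM in the knockout, and 931 and 769 TPM in serum, and it fell in both. Eef2, a translation elongation factor, stood at 390 TPM in 2i against 1469 and 1316 TPM in serum and fell there by 1.83 ± 0.12 (limma adjusted p = 4.91e-07), while its Snord37 window held 638 H3K36me3 CPM in 2i against 551 in serum, where the window was chosen and the input was high.

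The enzymes that set, remove and read H3K36me3 were measured in the same RNA libraries. None of the 40 listed genes had a member window. Of 32 tested, 4 were higher and 6 lower in 2i (12.5% and 18.8%, against 20.4% and 11.8% of all tested genes), and 17 were higher and 4 lower in the knockout (53.1% and 12.5%, against 62.5% and 11.7%). The knockout shares were thus near or below those of all genes. Relative to the median gene, 2 of the 32 were higher and 9 lower in 2i, and 8 were higher and 15 lower in the knockout. Of all tested genes, 13.8% were then higher and 18.7% lower in 2i, and 21.8% and 36.5% in the knockout. Both knockout shares relative to the median gene were thus above those of all genes. Setd2, the enzyme of H3K36 trimethylation, stood at 4.09 TPM in 2i, 7.61 and 5.78 TPM in the knockout, and 7.88 and 5.68 TPM in serum. Its knockout and serum values overlapped, and neither comparison passed the test (limma adjusted p = 0.185 in 2i and 0.97 in the knockout), although relative to the median gene it was called lower in both.

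Among the writers of lower methylation states, Nsd1 rose in 2i, and Nsd1, Whsc1l1, Ash1l and Smyd2 rose in the knockout. Nsd1 stood at 12.8 TPM in 2i, 40.9 and 47.3 TPM in the knockout, and 8.17 and 5.15 TPM in serum. Of the erasers, Kdm2b and Kdm4c rose and Kdm2a fell in the knockout, and none of the 3 tested was called in 2i. Of the elongation partners, Supt6h and Ctr9 fell and Paf1 and Ccnk rose in 2i, while Iws1, Supt5h, Paf1, Leo1, Rtf1 and Ccnk rose and Ccnt1 and Cdk9 fell in the knockout. Supt6h, a histone chaperone of elongating polymerase, stood at 1.82 TPM in 2i against 6.84 and 6.33 TPM in serum, and it fell by 1.43 ± 0.30 (limma adjusted p = 0.00343). In 2i the calls of Nsd1, Paf1 and Ccnk ended without serum replicate 2 or either knockout library, with limma adjusted p values up to 0.164, 0.169 and 0.103, and that of Ctr9 ended without either knockout library, with values up to 0.0776. In the knockout the calls of Whsc1l1 (without knockout replicate 1, limma adjusted p = 0.0734), Kdm2a (without knockout replicate 2, 0.0815), Iws1 (without serum replicate 2, 0.0710) and Cdk9 (without either knockout library or serum replicate 1, up to 0.119) ended.

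Of the readers, Dnmt3b, a DNA methyltransferase whose PWWP domain binds H3K36me3, fell in both comparisons. It stood at 2.72 TPM in 2i, 6.23 and 4.29 TPM in the knockout, and 27.3 and 20.2 TPM in serum, with log2 fold changes of -2.72 ± 0.32 (limma adjusted p = 4.89e-05) and -1.99 ± 0.26 (limma adjusted p = 2.74e-05). Dnmt3a, Glyr1 and Ptbp1 also fell in 2i, where Mtf2 rose. In the knockout Msl3, Psip1, Hdgfrp2, Glyr1 and Msh6 rose, but without 1 knockout library the calls of Psip1 and Glyr1 ended, with limma adjusted p values up to 0.143 and 0.0890. Relative to the median gene, several calls of this list ended. Those were Nsd1 and Paf1 in 2i, and in the knockout Whsc1l1, Iws1, Supt5h, Leo1, Ccnk, Msl3, Psip1, Glyr1 and Msh6, whose log2 fold changes relative to that median ran from -0.14 (Glyr1) to 0.79 (Msl3), below 0 for Glyr1, Psip1 and Iws1.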

How the data were processed

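ChIP-seq values were deposited by the authors as raw read counts per window of 1000 bases, with whole cell extract as input, on build mm9. RNA-seq values were deposited as the natural log of TPM + 1, which the values show, and were turned back into TPM. Bowtie and RSEM are named in the submitters' processing notes, without versions or roles. Sources used here give neither the choice of windows nor the ChIP protocol.

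Each ChIP library was expressed as counts per 1000000 over its windows (CPM). Window centres were taken as gene starts, since neighbouring starts and centres on opposite strands had the same spacing, to 1 base, in 23.5% of 8172 pairs, against 0.477% for the next most common offset. Gene names, hosts, neighbours and sequences came from RefSeq (GRCm38.p6), which matched 482 of 500 members and 22684 of 23167 windows. ChIP conditions had 1 library each and were not tested. Bulk RNA was tested with limma 3.58.1 (R 4.3.3, trend, 2 residual and 10.25 prior degrees of freedom) on log2(TPM + 1) over 10081 genes with a mean of at least 1 TPM, 1 fit over all 5 libraries, with Benjamini-Hochberg adjustment and a threshold of 0.05. The scale understates changes of low genes, depth is unknown for RNA, and the spread of the single 2i library is taken from the other populations. Tested on simulated data of 10081 genes, limma called 46% of genes changed 4-fold and 2% of those changed 2-fold in 2i, and 73% and 12% in the knockout. Python 3.11.15 was used for the rest.

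The members and lists were chosen with earlier results of these data known, and the limits of 1000, 2000 and 5000 bases for neighbours after seeing the data. Genes were named by a rule: the 12 leading members, 3 windows on each side of the limit, the 8 largest called rises and falls per comparison, the 4 highest and lowest members per condition, the 3 leading members per class and per mark, and called genes of the H3K36 list, while others are said to be chosen after their values were seen. Samples were grouped by the culture conditions and cell type in the labels. Replicate numbers of serum and knockout populations did not pair them (correlation of their deviations -0.03). Alternatives covered the filter, pseudocount, scaling, left-out libraries, size and rule of the window set and minimum counts. Some genes that these rules select are not reported here.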

Additional observations from a re-analysis of the deposited data

How the results depend on the processing

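The bulk RNA shares of members moved with the filter, the scaling and the libraries used. With no filter on low values, 3.10% of members were higher and 1.55% lower in 2i and 21.3% and 6.98% in the knockout, where more silent members entered the count. Centred on the median gene the shares were 13.7% and 19.7% in 2i and 13.7% and 46.2% in the knockout, and after quantile normalisation 22.2% and 34.2% in the knockout. With a mean of at least 5 TPM 22.1% were lower in 2i. Fitted on the serum and 2i libraries alone, 14.5% were higher and 5.13% lower. Leaving out 1 library at a time gave 12.8% to 17.1% higher and 4.27% to 11.1% lower in 2i, 41.9% to 55.6% higher and 13.7% to 18.8% lower in the knockout, and a median serum level of 0.212 to 0.348 TPM. With the replicate block, which pairs serum and knockout populations by number, 56.4% of members were higher and 20.5% lower in the knockout, so the pairing changed neither share by more than 1.5 times.

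The share of members found again was 73.6% in 2i and 62.8% in the knockout with sets of 250 windows, 57% and 48% with 1000, 57% and 36.4% when windows were ranked by the ratio to input, and 55.95% and 42.5% without small RNA genes. Among the highest 5% of windows, leaving out small RNA genes gave 1.59% for H3K4me3, 1.59% for H3K27ac and 4.37% for RNAP2. For RNAP2 the share was 18.4% with 250 and 8.80% with 1000 windows. For H3K27me3 it was 0.200% ranked by ratio, 0.204% without windows of high input and 0.400% after subtracting input, and for H3K9me3 4.20% ranked by ratio. With at least 50 reads, H3K4me3 was 2-fold higher in 7.19% and lower in 14.4% of members in 2i and higher in 32.9% and lower in 1.22% in the knockout, and RNAP2 was higher in 6.45% in 2i and lower in 0.505% in the knockout, or lower in 1.60% relative to the median fold. The median serum level was 0.648 TPM over 250 windows and 0.409 TPM in single cells. The cause of these moves was not tested. The other 112 values stayed within their limits. The sets without windows of high input, with overlapping windows once and without small RNA genes were chosen after seeing the data. Depth limits the ChIP values to windows with few reads, 1 library per condition allows no test, and fold changes of single libraries carry counting error only.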
